A study of Mus musculus with 6 samples.

Results

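Cytosolic ribosomal proteins are the protein parts of the ribosome that translates nuclear-encoded messenger RNA. The genes were taken by symbol, as mouse genes named Rpl or Rps with a number (with the suffixes a, l, x or y), Rplp0, Rplp1, Rplp2 and Rpsa, without rows described as pseudogenes. This gave 83 of the 52550 mouse genes in the deposited table, 51 of the large and 32 of the small subunit. The choice used no measured value.

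Muscle RNA of male FLExDUX4 mice and male wild-type (WT) mice was sequenced with QuantSeq, a 3' mRNA-Seq method that yields about 1 read per transcript, so that counts of different genes can be set side by side without a correction for length. The labels give 3 mice per genotype, all quadriceps at 13 weeks of age, while the methods of the study describe triceps of younger animals, and the files used here do not settle which applies. FLExDUX4 mice carry a human DUX4 transgene in inverted orientation between lox sites. Cre recombinase turns it into an expressed orientation, but no Cre is named for these mice, and the line is described as a low, leaky expresser of DUX4, the transcription factor of facioscapulohumeral muscular dystrophy. No row of the table is named DUX4, so the transgene was not analysed here.

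Only the summed counts of each genotype could be tied to the labels, so each gene has 1 value per genotype and there was no test across mice. A single mouse can decide a ratio. The totals were 13110125 counts on mouse genes in FLExDUX4 and 18367364 in WT. Levels are given as CPM, the counts per 1000000 counts of a total scaled by TMM (a factor that makes the bulk of genes equal), and a difference is the log2 ratio of FLExDUX4 to WT with a 95% interval that covers counting error only. In a bulk sample, fewer cells of a type and less RNA per cell cannot be told apart.

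Each ribosome holds 1 copy of nearly every ribosomal protein, and the genes are known for levels that vary together. Their transcripts start with a run of pyrimidines, the 5' terminal oligopyrimidine (TOP) motif, through which mTOR signalling controls their translation. The acidic P-stalk proteins of the large subunit recruit the translation factors. Rpl3 lies near the peptidyl transferase centre, and striated muscle replaces much of it with the paralog Rpl3l.

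The TOP start can be seen in the 4 members with the longest pyrimidine runs, which are printed with Rpl3l because the muscle paralog is described in detail further on. Each window holds 10 bases before and 20 bases from the start annotated by RefSeq on GRCm38.p6, 5' to 3' on the gene's strand, with the longest pyrimidine run in capitals. The windows lie at chr7:109519185-109519214 (Rpl27a, plus strand), chr2:39005112-39005141 (Rpl35, minus), chr14:18270967-18270996 (Rpl15, minus), chr2:26910797-26910826 (Rpl7a, plus) and chr17:24727816-24727845 (Rpl3l, plus).
Rpl27a: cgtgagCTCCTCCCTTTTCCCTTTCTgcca
Rpl35: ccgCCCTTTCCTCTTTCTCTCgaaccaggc
Rpl15: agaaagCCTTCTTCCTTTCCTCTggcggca
Rpl7a: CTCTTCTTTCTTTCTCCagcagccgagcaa
Rpl3l: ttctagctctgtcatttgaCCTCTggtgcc

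The runs are 20, 18, 17 and 17 bases long in the first 4 genes and 5 bases long in Rpl3l. A short run is not particular to the paralog, since Rpl27 and Rpsa also have 5 bases and Rpl5 has 3. The run depends on the annotated start, and some members have several starts, such as Rpl35a with runs of 13, 5 and 4 bases. Whether the annotated starts are those used in muscle was not tested, so a short run does not show that a TOP start is missing. RefSeq promoters were given for 61 of the 83 members. A pyrimidine run of at least 8 bases within 20 bases of the start was found in 29 of these 61 (47.5%), compared with 4965 of 27025 genes (18.4%). The promoter (250 bases before to 50 after the start) held CCGGAAG on either strand in 25 members (41.0%) and in 9.93% of all genes. The palindrome CTCGCGAG was present in 7 members (11.5%) and in 1.04% of all genes. A match is a description of the sequence and not a bound site.

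The members as a whole made up a near-equal part of the muscle transcriptome in both genotypes. They held 146018 counts in FLExDUX4 and 212092 in WT, which is 1.1138% (1.1081 to 1.1195) and 1.1547% (1.1498 to 1.1596) of all counts on genes. Large subunit genes took 0.607% and 0.628%, and small subunit genes 0.507% and 0.526%. After scaling, the summed members had a log2 ratio of -0.02 (-0.03 to -0.01). The interval leaves out 0 because the sums are large, and the spread between mice is unknown.

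Of the 83 members, 79 had enough counts to be compared, among 13396 genes. Their WT levels ran from 2.48 to 614 CPM, with a median of 112 CPM, and the FLExDUX4 median was 108 CPM. The order of levels was nearly the same in both genotypes, with a Spearman correlation of 0.994 over the 79 members as a description. The points share the 2 pooled totals.

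**Figure D1:**
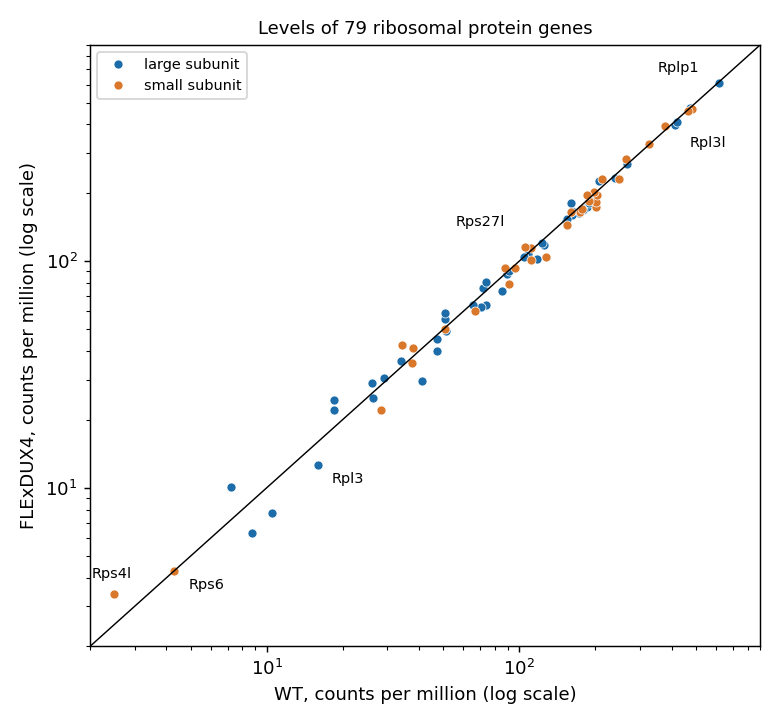
Level of each of the 79 ribosomal protein genes in WT (x axis) and FLExDUX4 (y axis), in CPM on log scales, with 1 point per gene and the line of equal levels. Points lie along the line over the whole range from 2.48 to 614 CPM in WT, and the members farther from it mostly have low levels, with Rps15a at 104 CPM in FLExDUX4 and 128 in WT as an exception.

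Of the 79 members, 29 were higher in FLExDUX4, where 49.7% of all genes compared were higher, and 50 were lower, where 50.3% of all genes were. At least 1.2-fold higher were 5 members, against 25.9% of all genes, and at least 1.2-fold lower were 6, against 26.3%. The counting interval lay above 0 for 13 members (20.5% of all genes) and below 0 for 22 (20.6% of all genes). The median log2 ratio was -0.02 over the members and -0.003 over all genes compared. Scaled to the spike-ins instead, 4 members were higher and their median was -0.30, where the median of all genes was -0.28, so the direction of single members depends on the scaling (Rpl19, Rpl41 and Rps27l, higher in the values below, were then lower). Relative to that shift, the members again lay close to the other genes.

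The ratios of the members lay closer together than those of genes in general. Of the 79 members, 68 (86.1%) were within 1.2-fold of equal levels, and the log2 ratios had an SD of 0.18 across members. Over all genes compared, 47.9% were within 1.2-fold and the SD was 0.87. Members have more counts than most genes, so the comparison was also made among genes with at least 1000 counts over both genotypes. There, 64 of 67 members (95.5%) were within 1.2-fold, compared with 84.6% of 2727 genes, and the SDs were 0.12 and 0.20. No test of this difference in spread was run, since genes are not replicates.

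Other groups of genes that work as complexes gave further values for comparison, chosen after the data had been seen. Of 74 mitochondrial ribosomal protein genes (Mrpl and Mrps), 68.9% were within 1.2-fold, with a median log2 ratio of 0.01. Of 37 proteasome subunit genes (Psma to Psmd), 86.5% were within 1.2-fold, a share like that of the cytosolic ribosomal proteins, with a median of -0.01. The SD was 0.25 for the proteasome and 0.26 for the mitochondrial ribosomal protein genes, compared with 0.18 for the members. These values were taken without a cut on counts.

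**Figure D2:**
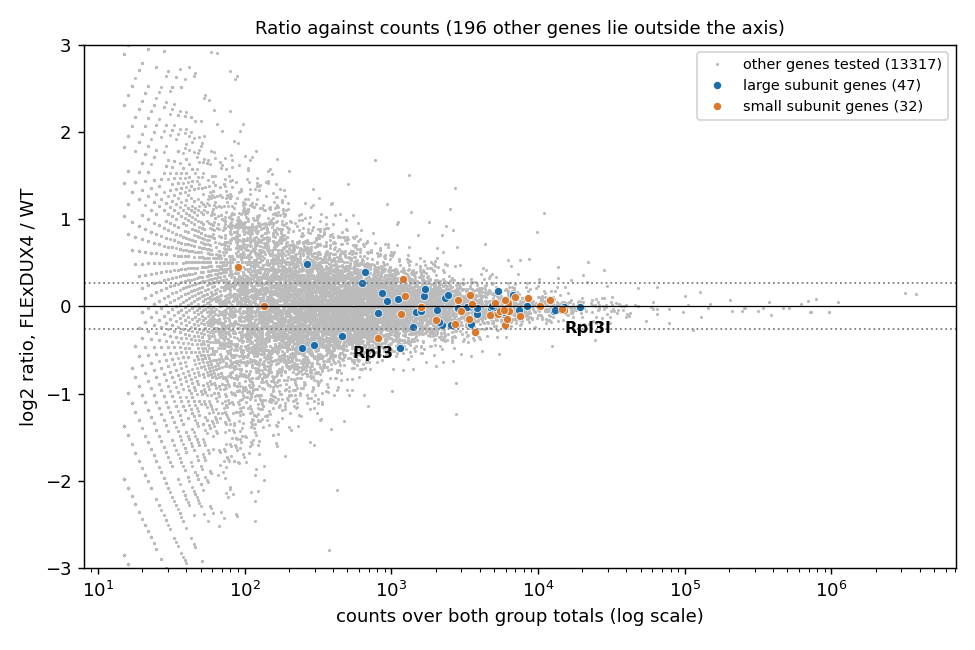
Log2 ratio of FLExDUX4 to WT (y axis) against counts over both genotypes (x axis, log scale) for the 79 members, coloured by subunit, and 13317 other genes in grey. Dotted lines mark 1.2-fold, and 196 other genes lie beyond the axis limit of 3 in either direction. The members lie in the narrow part of the cloud, and of the 67 with at least 1000 counts, 64 lie between the dotted lines.

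The 3 P-stalk genes had near-equal levels in both genotypes. Rplp1 was the most abundant of all members, with 7928 counts in FLExDUX4 and 11394 in WT, or 611 and 614 CPM (log2 ratio -0.01, -0.05 to 0.03). Rplp2, its partner in the acidic dimers, had 268 and 267 CPM (log2 ratio 0.01, -0.06 to 0.07). Rplp0, which anchors the stalk to the ribosome, had 199 and 197 CPM (log2 ratio 0.02, -0.06 to 0.09). Every interval includes 0, and its bounds are narrower than 1.2-fold.

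Behind Rplp1, the most abundant members were Rps29, Rpl23a, Rps14 and Rpl37. Rps29 had 469 CPM in FLExDUX4 and 483 in WT (log2 ratio -0.04, -0.09 to 0.01). Rpl23a, which lies at the exit of the nascent peptide tunnel, had 473 and 475 CPM (log2 ratio -0.01, -0.05 to 0.04). Rps14, whose loss causes the anaemia of the human 5q- syndrome, had 458 and 467 CPM (log2 ratio -0.03, -0.08 to 0.02). Rpl37 had 409.7 and 419.8 CPM (log2 ratio -0.04, -0.09 to 0.02). The 10 most abundant members held 36.3% of all member counts in FLExDUX4 and 35.9% in WT.

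**Figure D3:**
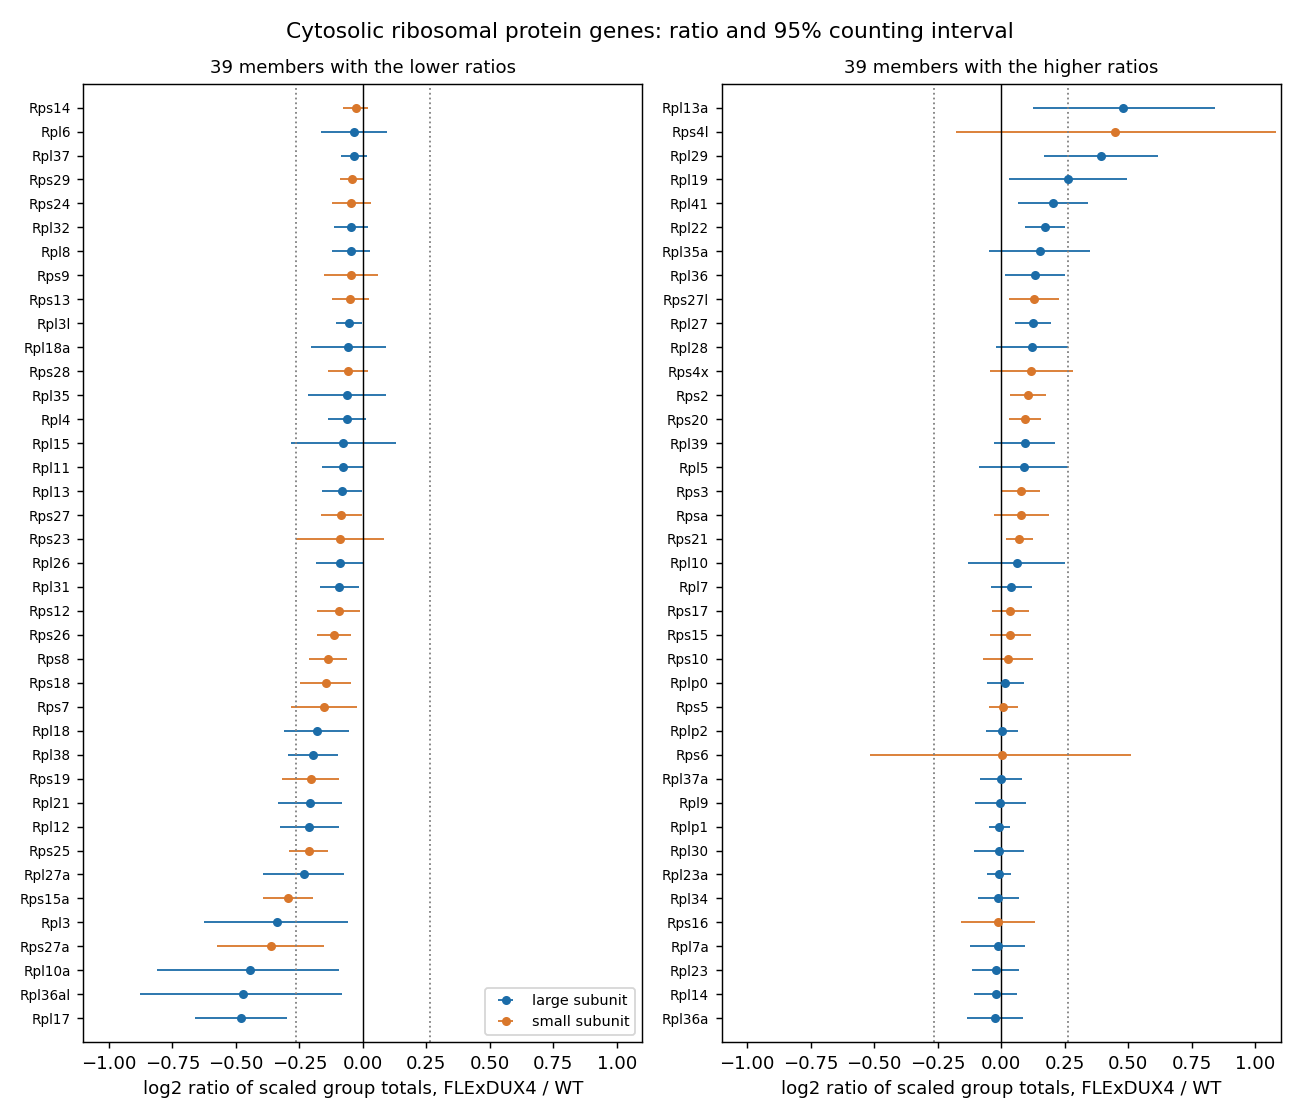
Log2 ratio of FLExDUX4 to WT for 78 of the 79 members, in order of the ratio, with 95% intervals for counting error, coloured by subunit. Solid lines mark equal levels and dotted lines 1.2-fold. All but 10 points lie between the dotted lines, with Rpl19 just at the line, and the wide intervals at both ends belong to members with few counts.

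Among the 47 large subunit members compared, 15 were higher and 32 lower in FLExDUX4 (49.7% and 50.3% of all genes), with a median log2 ratio of -0.02. Rpl13a, which also acts outside the ribosome in silencing inflammatory transcripts, had the highest ratio, with 131 counts in FLExDUX4 and 134 in WT, or 10.1 and 7.22 CPM (log2 ratio 0.48, 0.13 to 0.84). Rpl29 had 316 and 344 counts (log2 ratio 0.39, 0.17 to 0.62). For Rpl19 there were 287 and 342 counts (log2 ratio 0.26, 0.03 to 0.49), a ratio just at the 1.2-fold limit. Its pseudogene rows held a further 22 and 5 counts, and with them the ratio was 0.35 (0.12 to 0.57). Rpl41, which encodes the smallest ribosomal protein, had 762 and 946 counts (log2 ratio 0.20, 0.06 to 0.34) and lay within that limit.

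At the other end, Rpl17 had 384 counts in FLExDUX4 and 765 in WT, or 29.6 and 41.2 CPM (log2 ratio -0.48, -0.66 to -0.30). It had the lowest ratio of all members compared. Rpl10a had 100 and 195 counts (log2 ratio -0.45, -0.81 to -0.09), but its pseudogene rows held a further 24 and 7 counts, and with them the ratio was -0.19 (-0.52 to 0.14), within 1.2-fold. Rpl36al is described with the paralogs. Rpl5 and Rpl11, which form a complex with 5S ribosomal RNA and bind Mdm2 when ribosome assembly is disturbed, had log2 ratios of 0.09 (-0.09 to 0.26) and -0.08 (-0.16 to 0.0002). Both intervals include 0. Rpl38, which is needed for translation of Hox transcripts in the mouse embryo, had 102 and 117 CPM (log2 ratio -0.20, -0.30 to -0.10).

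Of the 32 small subunit members, 14 were higher and 18 lower (49.7% and 50.3% of all genes), with a median of -0.03. Rps27a, which is made as a fusion with ubiquitin, had 287 counts in FLExDUX4 and 528 in WT (log2 ratio -0.36, -0.58 to -0.15). Its pseudogene rows held a further 19 and 0 counts, and with them the ratio was -0.27 (-0.48 to -0.06), just past 1.2-fold. Rps27a also shares 86.9% of the 50-base stretches in its last 300 transcript bases with 13 other annotated genes. Rps15a had 1353 and 2373 counts (log2 ratio -0.29, -0.39 to -0.20), the largest number of counts of the 11 members past 1.2-fold. Rps6, the substrate of the S6 kinases, was listed with 56 and 80 counts only (log2 ratio 0.002, -0.52 to 0.51), so that a difference within this interval was not detectable at this depth, and it shares 83.3% of the 50-base stretches in its last 300 transcript bases with 11 other annotated genes, so its level may not be that of the transcript. Rps19, the gene most often mutated in Diamond-Blackfan anaemia, had 79.2 and 91.2 CPM (log2 ratio -0.20, -0.32 to -0.09), and Rpsa, also known as a laminin receptor, had 92.9 and 88.0 CPM (log2 ratio 0.08, -0.03 to 0.19).

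Members with large ratios were mostly those with few counts. Of the 12 members under 1000 counts over both genotypes, 4 were within 1.2-fold, and among all genes under 1000 counts 38.5% were. The size of the log2 ratio had a Spearman correlation of -0.495 with total counts over the 79 members, while the signed ratio had one of 0.009. These are descriptions, and the members share the same totals.

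Reads from ribosomal protein genes can match processed pseudogenes, so the last 300 transcript bases of each member were compared with all other annotated genes in stretches of 50 bases. Such stretches were shared for over 50% of positions in 41 of the 81 members with a coding transcript, and for none in 25. Of the 40 members compared with over 50% shared, 8 were past 1.2-fold, and of the 23 with none shared, 2 were (Rpl13a and Rps15a). How reads with several matches were counted is not given in the sources used here. The 274 pseudogene rows named after members held 491 counts in FLExDUX4 and 644 in WT, which is 0.335% and 0.303% of the counts on members and pseudogenes together. With these rows added to their members, 4 members were at least 1.2-fold higher and 5 at least 1.2-fold lower, in place of 5 and 6, and the median log2 ratio was -0.03. The part of reads left uncounted was not tested.

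Rpl3l was the more abundant gene of the Rpl3 pair in both genotypes. The gene lies at chr17:24727820-24736143 on the plus strand of GRCm38 and encodes a large subunit protein of striated muscle. The table listed 5158 counts in FLExDUX4 and 7664 in WT, or 398 and 413 CPM (log2 ratio -0.05, -0.11 to -0.004), which ranked Rpl3l 6 among the 83 members in both genotypes. Rpl3 ranked 74, with 163 and 295 counts, or 12.6 and 15.9 CPM (log2 ratio -0.34, -0.62 to -0.06). Rpl3 is on chromosome 15.

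Rpl3l made up 96.9% (96.4 to 97.4) of the counts of both genes in FLExDUX4 and 96.3% (95.9 to 96.7) in WT, or 31.6 and 26.0 counts per count of Rpl3. The log2 ratio of Rpl3l minus that of Rpl3 was 0.28 (-0.001 to 0.57), an interval that includes 0, so a difference in the balance was not detectable at this depth. The 2 genes also differ in how uniquely they can be counted. Rpl3 shares 76.5% of the 50-base stretches at its 3' end with 9 other genes, and Rpl3l shares none, so the ratio of the 2 levels may not be that of the transcripts.

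The first 90 coding bases of the pair, from the GENCODE M21 transcripts, show how far the paralogs have diverged, with the differing bases in capitals.
Rpl3: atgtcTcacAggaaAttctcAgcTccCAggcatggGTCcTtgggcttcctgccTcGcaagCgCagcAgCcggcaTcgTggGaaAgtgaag
Rpl3l: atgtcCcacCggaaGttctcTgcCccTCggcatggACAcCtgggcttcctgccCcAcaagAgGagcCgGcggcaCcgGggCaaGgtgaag

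Of these 90 bases, 21 differ. Over 1206 aligned bases of the coding sequences (1209 in Rpl3 and 1221 in Rpl3l), 74.1% are identical. The longest stretch that the last 300 transcript bases of both genes have in common is 17 bases, shorter than the 50 used above.

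**Figure D4:**
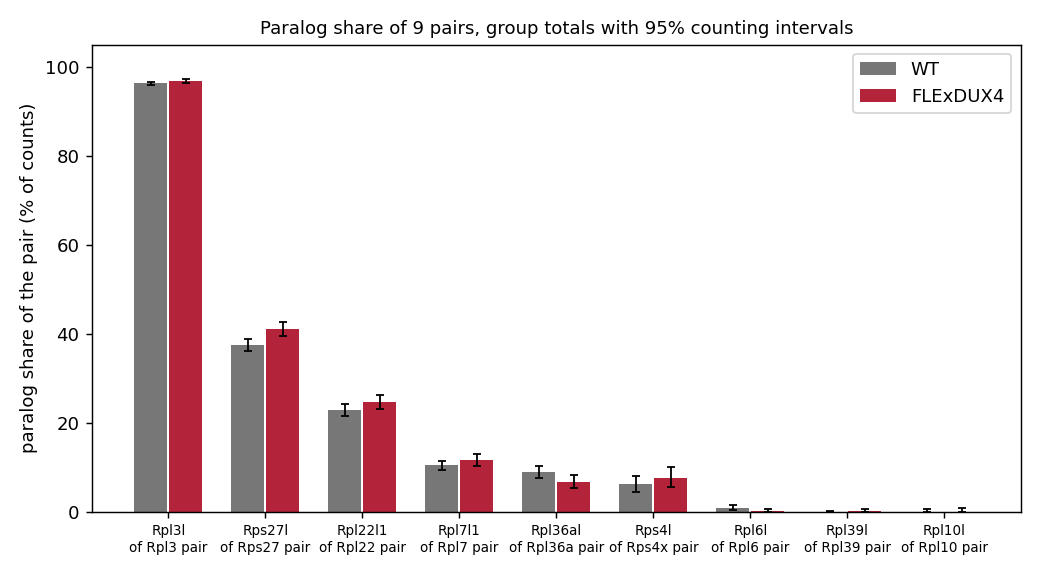
Share of the paralog in the summed counts of 9 pairs (y axis, percent), for WT in grey and FLExDUX4 in red, with 95% exact binomial intervals for counting error. Rpl3l takes over 95% of its pair in both genotypes, the paralogs of Rps27 and Rpl22 take 23.0 to 41.1%, and the others less.

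The other paralogs were the minor gene of their pair. Rps27l, a p53 target, had 1489 counts in FLExDUX4 and 1946 in WT (log2 ratio 0.13, 0.03 to 0.23) and took 41.1% (39.5 to 42.7) and 37.6% (36.2 to 38.9) of the pair with Rps27. The log2 ratio of Rps27l minus that of Rps27 was 0.21 (0.09 to 0.34). Rpl36al had 82 and 163 counts (log2 ratio -0.47, -0.88 to -0.08), or 6.73% and 8.98% of the pair with Rpl36a, with a difference of log2 ratios of -0.45 (-0.87 to -0.04). The last 300 bases of Rpl36al overlap another annotated gene, Gm49383. Those 2 intervals leave out 0, for counting error only. Rps27 and Rpl36a share 100% of the 50-base stretches at their 3' ends with other genes, Rps4x 62.2% and Rpl36al 68.9%, while Rps27l shares none, so the shares of these pairs are shares of counts and may not be those of the transcripts.

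Rps4l and Rpl6l are processed pseudogenes in GENCODE M21, although the table does not describe them as such. Rps4l had 44 counts in FLExDUX4 and 46 in WT (log2 ratio 0.45, -0.18 to 1.08), which is 7.61% and 6.14% of the pair with Rps4x. Rpl6l had 1 count in FLExDUX4 and 11 in WT (log2 ratio -2.52, -8.37 to -0.16), and was not among the 79 members compared. Rpl39l, a testis paralog, had 2 and 0 counts, and Rpl10l, also a testis gene, had 0 in both, where 3 counts would be 0.231 CPM in FLExDUX4 and 0.162 CPM in WT. Rpl24 was listed at 0 in both, although it encodes a protein of every ribosome. It shares 81.3% of the 50-base stretches at its 3' end with 9 other genes, and 58.3% of its last 300 bases overlap Gm28037, so its level cannot be read from this table.

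Of 6 genes compared that belong to or are named after the ribosome and that the symbol rule does not reach, 4 were higher and 2 lower (49.7% and 50.3% of all genes), with a median log2 ratio of 0.08. Rack1, a scaffold on the small subunit, had 2850 counts in FLExDUX4 and 3972 in WT (log2 ratio 0.04, -0.03 to 0.11), and Rps3a1 had 864 and 1263 (log2 ratio -0.03, -0.16 to 0.09). Fau, which encodes a ubiquitin-like protein fused to Rps30, had 652 and 853 (log2 ratio 0.13, -0.02 to 0.28). Rpl22l1, the paralog of Rpl22, had 768 and 883 counts (log2 ratio 0.31, 0.17 to 0.46) and took 24.7% (23.2 to 26.3) and 23.0% (21.6 to 24.3) of the counts of the pair. The difference from Rpl22 was 0.14 (-0.02 to 0.30), an interval that includes 0. Rpl7l1 took 11.6% and 10.4% of the counts of the pair with Rpl7, which shares 93.6% of its 3' stretches with other genes, with a difference of 0.18 (-0.07 to 0.42).

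Of 15 other translation genes with a TOP start, 9 were higher and 6 lower (49.7% and 50.3% of all genes), with a median log2 ratio of 0.04. At least 1.2-fold higher was 1 of them and at least 1.2-fold lower 1 (25.9% and 26.3% of all genes). The counting interval lay above 0 for 3 and below 0 for 2 (20.5% and 20.6% of all genes). Eef2, the translocation factor, had 551 and 525 CPM (log2 ratio 0.07, 0.03 to 0.12), and Eef1a1 had 228 and 245 counts (log2 ratio 0.41, 0.15 to 0.68). On the other side, Eif3e, a subunit of an initiation factor, had 104 and 117 CPM (log2 ratio -0.18, -0.28 to -0.08), and Hnrnpa1, an RNA-binding protein, had 31 and 71 counts (log2 ratio -0.67, -1.34 to -0.05). Eef1a2, the muscle form of that elongation factor, had 824 and 903 CPM (log2 ratio -0.13, -0.17 to -0.10). Among 29 ribosome biogenesis genes 15 were higher and 14 lower (49.7% and 50.3% of all genes), with a median of 0.001. At least 1.2-fold higher were 4 of them and at least 1.2-fold lower 3 (25.9% and 26.3% of all genes), and the counting interval lay above 0 for 5 and below 0 for 4 (20.5% and 20.6% of all genes). Ncl, the nucleolin gene and the most abundant, had 227 CPM in each genotype (log2 ratio 0.001, -0.07 to 0.07). The range ran from Fbl, the rRNA methyltransferase fibrillarin, with 31 and 82 counts (log2 ratio -0.88, -1.53 to -0.27), to Gnl2, a GTPase of large subunit assembly, with 439 and 400 counts (log2 ratio 0.65, 0.45 to 0.85). Of 9 genes of the mTOR arm that acts on ribosomal proteins, 5 were higher and 4 lower (49.7% and 50.3% of all genes), with a median of 0.001. None was at least 1.2-fold higher and 2 were at least 1.2-fold lower (25.9% and 26.3% of all genes), and the interval lay above 0 for 1 and below 0 for 3 (20.5% and 20.6% of all genes). Larp4b, an RNA-binding protein and the most abundant of them, had 163 and 148 CPM (log2 ratio 0.15, 0.06 to 0.23). Rps6kb2, an S6 kinase, had 101 and 237 counts (log2 ratio -0.71, -1.06 to -0.37).

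Markers of the cell types that muscle holds were read in the same totals. Muscle fiber markers were abundant, with Acta1 at 35944 CPM in FLExDUX4 and 34707 in WT. The 10 fiber markers summed to 152508 and 154586 CPM, with 2 higher and 8 lower and a median log2 ratio of -0.02. Their interval lay above 0 for 2 and below 0 for 8, and 0 of them were past 1.2-fold in either direction. All 8 fibroblast markers were higher (2367 and 2122 CPM in sum, median log2 ratio 0.19), 5 of them with an interval above 0, as were all 5 erythroid markers (1279 and 1019.8 CPM in sum, median 0.33), each with an interval above 0, and 6 of 7 adipocyte markers (2239 and 2142 CPM in sum, median 0.20), 5 with an interval above 0. Of all genes compared, 49.7% were higher and 50.3% lower, and 20.5% had an interval above 0 and 20.6% below 0. Of the adipocyte sum, 1963 and 1897 CPM were Car3, which muscle fibers also express, and Adipoq had 22.7 and 13.9 CPM. Endothelial markers summed to 305 and 312 CPM, with 3 higher and 5 lower, and the interval lay above 0 for 2 and below 0 for 3. Leukocyte markers summed to 83.5 and 78.8 CPM. Of the 7 compared, 4 were higher and 3 lower, with 2 intervals above 0 and 0 below. Satellite cell markers summed to 40.8 and 39.5 CPM. Of the 6 compared, 3 were higher and 3 lower, with 1 interval above 0 and 1 below. The part of these cell types in the ribosomal protein ratios was not tested.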

How the data were processed

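Muscle RNA of male FLExDUX4 and WT mice (3 per group, quadriceps per the labels) was sequenced with QuantSeq. The authors deposited, for each feature, the counts summed over each genotype without normalization, which were the values used. The submitters' processing notes name cutadapt 1.16, FastQC 0.11.7, STAR 2.5.3a, featureCounts 1.6.2, Subread and DESeq2, with GRCm38 and GRCh38. A further 6 columns of single-sample values carry numeric names found in no label and were not used in any step, nor were the columns of the authors' own comparison (mean, fold change, error, statistic and p-values). Symbols and starts were matched to GENCODE M21, where 76 of 83 starts were equal.

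Spike-in counts (220016 and 259913) were left out of the totals. The filterByExpr function of edgeR 4.0.16, run in R 4.3.3, left 13396 genes, from which TMM factors were computed to scale both totals. A pseudocount of 0.5 was added to each count before the log2 ratio. Bounds at the 95% level follow Clopper and Pearson, with scipy 1.17.1 (Python 3.11.15), and take in counting error alone. Ratios were tested on simulated data with 200 changed genes. No p-value was computed, because a planned edgeR test needs counts of single mice.

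The members and gene lists were chosen with earlier results of these data known. Full values are given for Rpl3, Rpl3l, other paralogs ending in l, the P-stalk, the 5 highest and 5 lowest ratios among members with at least 100 counts, the 5 most abundant members, and members with at most 3 counts in a group. From other lists up to 4 genes by counts and by ratio were allowed. Other members (Rps15a, Rps6, Rps19, Rpsa, Rpl5, Rpl11 and Rpl38) and Eif3e were named after their values were seen. The values of 1 member that this rule names are not reported here. The alternatives were other scalings, pseudocounts, filters and fold limits.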

Additional observations from a re-analysis of the deposited data

How the results depend on the processing

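No paired analysis was possible because only the pooled totals of each genotype could be tied to the labels, so the replicate numbers could not be used. For the same reason the edgeR quasi-likelihood test, DESeq2, the replicate block and leaving out single mice were not run. The median log2 ratio of the members was -0.0234, and it was -0.0395 with upper quartile scaling, -0.0534 with gene total scaling and -0.054 with scaling to the genes outside the members. Scaled to the spike-in total, 4 members were higher, 0 were at least 1.2-fold higher and 53 at least 1.2-fold lower, the median was -0.30 and Rpl3l was at -0.33, while the median of all genes moved to -0.28, so nearly all of this is a shift of all genes. Of 37 other named genes, 12 changed sign with the spike-in total, 4 with gene total scaling, 4 with scaling to the genes outside the members, 3 with upper quartile and 0 with RLE scaling. Those of the 37 whose main interval left out 0 and whose sign changed did so with the spike-in total: Rpl19 to -0.0125, Rpl41 to -0.0716, Rps27l to -0.1457 and Eef2 to -0.2051. Some genes named above, such as Larp4b and the cell type markers, were not in the 37, so their sign under these scalings was not tested. With pseudogene rows added, 4 members were at least 1.2-fold higher and 5 lower, and Rpl10a went from -0.45 to -0.19. At a fold of 1.5, 0 members were past it in either direction. Among the 23 members with a 3' end of their own, an alternative chosen after seeing the data, 9 were higher, 1 was at least 1.2-fold higher and 1 at least 1.2-fold lower, with a median of -0.0351 (fewer members were counted there). Without mitochondrial genes the members took 1.442% of counts in FLExDUX4 and 1.481% in WT.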
